A study of Mus musculus with 8 samples.

Results

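The genes described here are 42 mouse genes of homologous recombination, the Fanconi anaemia pathway, mismatch repair and the DNA damage checkpoints. They were chosen by name, as a list of symbols, out of 37620 genes in each table, with earlier results of these data known. All 42 were among the 12840 genes that passed the filter on low counts. RNA sequencing had been run on 8 libraries of mouse small intestinal epithelium, whose cells were sorted by their level of the surface glycoprotein CD24. Cells carrying CD45, an antigen of leukocytes, or binding the lectin Ulex europaeus agglutinin I had been removed in both groups. In 4 libraries the cells had intermediate CD24 (CD24Mid, called CD24low elsewhere by the submitters, numbered 1, 3, 5 and 7) and in 4 they had none (CD24Neg, numbered 2, 4, 6 and 8). The labels call them biological replicates and name no strain, genotype, age or treatment for either group, nor whether animals were pooled, so the p-values below measure the spread between these samples.

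Homologous recombination repairs a broken chromosome by copying the intact sister, and it is therefore tied to the S and G2 phases of the cell cycle. BRCA1 and BARD1 promote trimming of the broken end, PALB2 and BRCA2 act at the trimmed end to start the search for the sister, and the Fanconi proteins unhook crosslinks at stalled forks. Mismatch repair corrects copying errors behind the fork, and the ATR and ATM kinases halt the cell cycle through CHEK1, CHEK2 and p53. In the small intestine the dividing cells lie in the crypts, and the absorptive cells that cover the villi no longer divide.

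The libraries held between 11340782 and 18928233 reads unique to 1 gene. Mitochondrially encoded genes took 8.03 to 9.17% of them in CD24Mid and 27.7 to 37% in CD24Neg. The 42 genes drew 20430 to 31368 of these reads in CD24Mid and 2426 to 5056 in CD24Neg. Levels below are CPM, the read count relative to a library size scaled with TMM, a factor that sets the bulk of genes equal between libraries. A gene with no read could not be told from up to 0.145 CPM in CD24Mid or 0.38 CPM in CD24Neg, where 3 reads is the limit that a count of 0 allows (counting error only). All 10 stem cell markers tested were higher in CD24Mid, and their summed level ran from 3834 to 5052 CPM there against 183 to 485 CPM in CD24Neg. All 12 enterocyte markers were higher in CD24Neg, with sums of 36393 to 59044 CPM against 1894 to 3257 CPM. Goblet cell markers summed to 3509 to 5445 CPM in CD24Mid and 12285 to 34626 CPM in CD24Neg, with 5 of 8 passing toward CD24Neg (on unscaled totals, 3 others passed toward CD24Mid). Those of enteroendocrine cells summed to 273 to 607 CPM in CD24Mid and 79.2 to 120 CPM in CD24Neg, with 10 of 12 passing toward CD24Mid. Markers of T and NK lymphocytes summed to 622, 36.5, 97.7 and 454 CPM in CD24Neg replicates 2, 4, 6 and 8 and to 7.86 to 21.7 CPM in CD24Mid, with 9 of 10 tested passing toward CD24Neg. Those of B and plasma cells summed to 537 to 1170 CPM in CD24Mid and 236 to 301 CPM in CD24Neg, with 6 of 9 passing toward CD24Mid and 1 toward CD24Neg. No marker of these 6 lists was at 0 in every library, and the part of these cells in the results below was not tested.

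Of the 42 repair and checkpoint genes, 38 were higher in CD24Mid, 1 (Slx4) was higher in CD24Neg, and Fancf, Fancg and Rmi1 did not pass (edgeR quasi-likelihood test, Benjamini-Hochberg adjusted p under 0.05 over 12840 genes). With scaling factors set without the mitochondrially encoded genes, whose share of reads differed between the groups, the counts were 39 and 1. Over all 12840 genes, 69.8% passed, 35.5% toward CD24Mid and 34.3% toward CD24Neg. The median log2 fold change, CD24Mid over CD24Neg, was 2.31 for the 42 genes and 0.02 for all genes tested. A call with more than a 2-fold difference toward CD24Mid was reached by 33 of the 42, against 20.4% of all genes, and 1 with more than 8-fold by 17, against 3.32%. In 39 of them every CD24Mid library lay above every CD24Neg library, against 33% of all genes. In whole sorted populations, fewer cells that express a gene and less RNA per cell cannot be told apart.

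**Figure D1:**
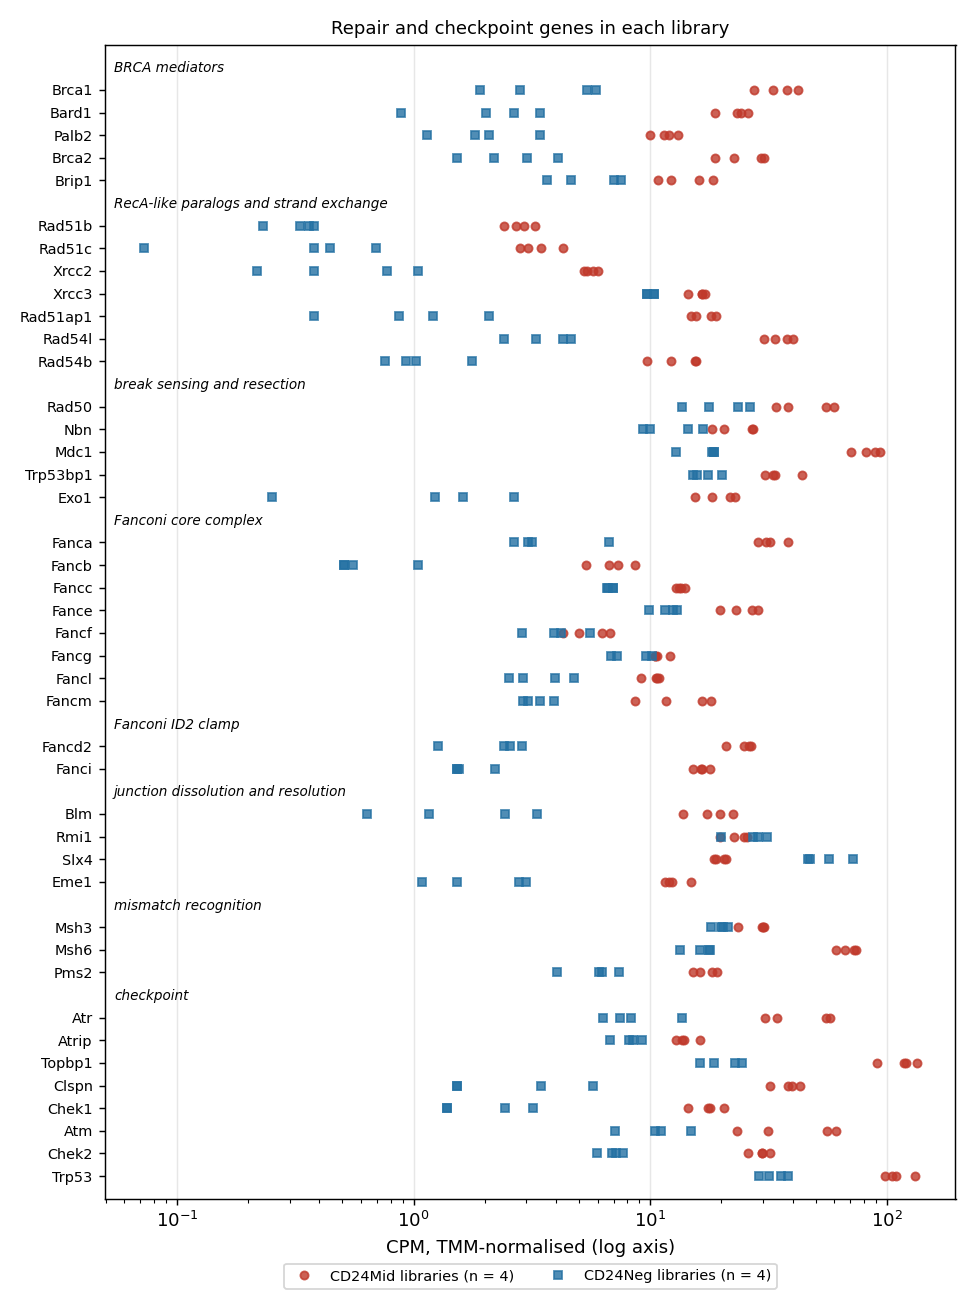
Normalised level (CPM, log axis) of each of the 42 genes in every library, ordered by role, with circles for the 4 CD24Mid and squares for the 4 CD24Neg libraries. The circles lie to the right of the squares in 39 genes, they mix with the squares in Fancf and Rmi1, and in Slx4 they lie to the left.

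Promoter sequences of 36 of the 42 genes were found in a RefSeq table (build GRCm38.p6, a later build than the one the reads were aligned to), each from 250 bases before to 50 bases after the annotated start. They were searched on both strands for letters bound by E2F factors, the transcription factors of the G1 to S transition, spelled TTTCGCGC, TTTGGCGC, TTTCCCGC or TTTGCCGC. These letters stood in 11 of the 36 (30.6%, Wilson 95% interval 18 to 46.9%), in 447 of 9733 tested genes with an entry (4.59%) and in 2.26% of all 32851 entries. They stood in 12 of 24 replication genes (50%). With only TTTCGCGC or TTTGGCGC admitted the share was 5 of 36 (13.9%), against 1.77% of tested genes and 41.7% of replication genes. The 11 genes were Bard1, Brca2, Chek2, Clspn, Fancg, Mdc1, Msh3, Msh6, Rad51c, Rmi1 and Topbp1. The letters in Msh3 were an overlapping pair on opposite strands. A match is a description of letters and not a binding site. Of 13 genes more than 8-fold higher in CD24Mid, 4 had the letters, and so did 7 of the other 23. Fancg and Rmi1, which did not pass the expression test, were among the genes with a match. The CCAAT box stood in 24 of 36 promoters (66.7%, against 43.1% of tested genes) and the cell cycle homology letters TTTGAA or TTCGAA in 4 (11.1%, against 16.7%).

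Printed below are upstream bases of 4 of these genes. Of them, 3 have a match (in capitals) at different distances from the start. The other 1 has no match and had the largest edgeR difference of the 42 with all libraries in. Bard1, the partner of BRCA1, had TTTCCCGC at -209 (chr1:71103147-71103222, minus strand, where 76 bases are shown because an exon is annotated after them). Brca2 had the same letters on the opposite strand at -168 (chr5:150522371-150522620, plus strand). Mdc1 had them at -16 (chr17:35841248-35841497, plus strand). Rad51ap1 had none (chr6:126939588-126939837, minus strand). Each is written 5′ to 3′ along the gene.
Bard1: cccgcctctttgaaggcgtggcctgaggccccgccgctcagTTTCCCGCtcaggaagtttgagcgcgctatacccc
Brca2: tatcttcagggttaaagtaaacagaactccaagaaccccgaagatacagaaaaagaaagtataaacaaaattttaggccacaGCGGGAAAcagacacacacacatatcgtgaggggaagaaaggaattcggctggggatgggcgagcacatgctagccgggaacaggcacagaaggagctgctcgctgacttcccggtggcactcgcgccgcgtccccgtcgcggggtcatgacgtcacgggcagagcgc
Mdc1: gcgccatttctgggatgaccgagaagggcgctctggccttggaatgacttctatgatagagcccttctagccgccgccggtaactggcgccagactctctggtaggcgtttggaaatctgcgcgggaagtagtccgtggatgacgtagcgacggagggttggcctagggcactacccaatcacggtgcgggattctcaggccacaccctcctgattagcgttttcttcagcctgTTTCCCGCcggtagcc
Rad51ap1: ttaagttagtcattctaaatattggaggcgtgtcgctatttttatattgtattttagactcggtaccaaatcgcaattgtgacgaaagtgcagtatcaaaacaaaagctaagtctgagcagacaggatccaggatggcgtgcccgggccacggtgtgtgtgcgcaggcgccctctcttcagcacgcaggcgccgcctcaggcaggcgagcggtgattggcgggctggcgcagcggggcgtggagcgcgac

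All 5 BRCA mediators were higher in CD24Mid, with a median log2 fold change of 3.14. The scaffold Brca1 (log2 fold change 3.14), its ring finger partner Bard1 (3.34) and Brca2, a mediator of strand exchange (3.23), were 8.82-fold to 10.1-fold higher. Palb2, the bridge from BRCA1 to BRCA2, was 5.48-fold higher (log2 fold change 2.45), and the helicase Brip1 2.49-fold (1.32). Brca1 stood at 27.4, 32.9, 38 and 42.2 CPM in CD24Mid replicates 1, 3, 5 and 7 and at 1.9, 5.9, 2.83 and 5.41 CPM in CD24Neg replicates 2, 4, 6 and 8 (edgeR adjusted p = 3.29e-06). Bard1, whose upstream bases are printed above, stood at 18.8, 24.3, 25.8 and 23.2 CPM in CD24Mid. In CD24Neg it stood at 0.887, 2.66, 2.03 and 3.42 CPM (edgeR log2 fold change 3.34 ± 0.27 SE, adjusted p = 1.37e-06). For both partners the lowest CD24Mid library lay well above the highest CD24Neg library, and CD24Neg replicate 2 was the lowest of its group. Brip1 stood at 10.8, 12.3, 16.1 and 18.5 CPM in CD24Mid and at 3.67, 4.63, 7.04 and 7.51 CPM in CD24Neg (edgeR log2 fold change 1.32 ± 0.25 SE, adjusted p = 6.85e-04). Its groups did not overlap, but the gap between them was narrower than for the other mediators.

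The RecA-like paralogs and strand exchange genes were all higher in CD24Mid (7 of 7, median log2 fold change 3.27), with Xrcc3 far less so than the rest. Rad51ap1, an accessory factor of strand invasion, had the largest edgeR difference of all 42 genes with all 8 libraries in, 14.9-fold. It stood at 14.9, 18, 15.6 and 18.9 CPM in CD24Mid and at 0.38, 2.08, 0.871 and 1.21 CPM in CD24Neg (edgeR log2 fold change 3.89 ± 0.31 SE, adjusted p = 1.17e-06). CD24Neg replicate 2 held 3 reads of Rad51ap1, the limit that a count of 0 allows. The nuclease gene Exo1 came close behind (log2 fold change 3.75 ± 0.36 SE). Exo1 exceeded Rad51ap1 by limma on the deposited estimates (4.23 against 3.99) and without CD24Neg replicate 8 (4.21 against 3.97). No E2F letters stood in the promoter window of Rad51ap1. The motor proteins Rad54l and Rad54b, which remodel the recombination intermediate, had log2 fold changes of 3.30 and 3.56. The paralogs Rad51b, Rad51c and Xrcc2 had log2 fold changes of 3.07, 3.18 and 3.27, on only 13, 14 and 22 reads in the 4 CD24Neg libraries together, and their means there (0.326, 0.397 and 0.603 CPM) lay near the limit of detection. The sizes of these 3 differences are therefore less certain than those of better counted genes. Xrcc3, a paralog that forms a complex with RAD51C, stood at 17.1, 16.6, 16.5 and 14.4 CPM in CD24Mid and at 10.4, 9.72, 9.66 and 10.4 CPM in CD24Neg (edgeR log2 fold change 0.69 ± 0.11 SE, adjusted p = 2.66e-04). The groups were tight and did not overlap, so a 1.61-fold difference passed.

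The genes that sense and trim breaks passed in all 5 cases, with a lower median log2 fold change of 1.20. Exo1, the nuclease that resects broken ends and also serves mismatch repair, stood apart at 13.4-fold. Its levels were 15.5, 21.8, 22.8 and 18.2 CPM in CD24Mid and 0.253, 1.62, 1.23 and 2.65 CPM in CD24Neg (edgeR log2 fold change 3.75 ± 0.36 SE, adjusted p = 4.63e-06). CD24Neg replicate 2 held 2 reads of Exo1, within what a count of 0 allows. The chromatin scaffold Mdc1, which binds phosphorylated H2AX and carries E2F letters just before its start, was 4.9-fold higher (log2 fold change 2.29), at 70.4, 94, 89.2 and 82 CPM in CD24Mid and 12.8, 18.6, 18.6 and 18.2 CPM in CD24Neg. The ATPase Rad50 and its partner Nbn, both of the MRE11 complex that holds broken ends, had log2 fold changes of 1.20 and 0.87, and Trp53bp1, which limits resection, 1.05. Nbn stood at 18.2, 20.6, 27.1 and 27 CPM in CD24Mid and at 9.37, 9.95, 16.7 and 14.4 CPM in CD24Neg (edgeR adjusted p = 0.0031). The highest CD24Neg library, replicate 6, lay just below the lowest CD24Mid library, replicate 1.

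Within the Fanconi core complex, the ubiquitin ligase of the pathway, 6 of 8 genes were higher in CD24Mid and Fancf and Fancg did not pass. Fancb (log2 fold change 3.43) and Fanca (3.06) were more than 8-fold higher, the fork translocase Fancm 4.13-fold (2.05), the catalytic subunit Fancl 2.94-fold (1.56), and Fance and Fancc 2.11-fold and 1.98-fold (1.08 and 0.98). Fancb, which forms a subcomplex with FANCL, stood at 5.33, 6.7, 8.66 and 7.32 CPM in CD24Mid and at 0.507, 1.04, 0.508 and 0.552 CPM in CD24Neg (edgeR adjusted p = 1.87e-06), the latter on 25 reads in all. Fancf, an adaptor of the complex, stood at 6.79, 6.28, 5.02 and 4.3 CPM in CD24Mid and at 4.18, 5.56, 3.92 and 2.87 CPM in CD24Neg, and the groups overlapped (edgeR log2 fold change 0.44 ± 0.24 SE, adjusted p = 0.12). Fancg, a scaffold of the core, stood at 10.5, 12.1, 10.7 and 10.5 CPM against 7.22, 6.83, 10.2 and 9.6 CPM (edgeR log2 fold change 0.37 ± 0.16 SE, adjusted p = 0.06). Its groups did not overlap, though CD24Neg replicates 6 and 8 came close to the CD24Mid libraries. Both genes passed toward CD24Mid under some other settings: with upper-quartile scaling the log2 fold change was 0.66 for Fancf and 0.59 for Fancg, and leaving out CD24Neg replicate 4 gave 0.66 for Fancf (edgeR adjusted p = 0.03). Without CD24Neg replicate 6, Fancg passed at 0.53, and without CD24Neg replicate 8 at 0.47. In a limma test of the deposited expression estimates, Fancg was at 0.09 (adjusted p = 0.76) and Fancf at 0.45 (adjusted p = 0.094).

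The target of that ligase, the clamp of Fancd2 and Fanci, differed more than most of the core. Fancd2 stood at 20.9, 26.8, 26.1 and 24.9 CPM in CD24Mid and at 1.27, 2.55, 2.4 and 2.87 CPM in CD24Neg (edgeR log2 fold change 3.42 ± 0.20 SE, adjusted p = 2.17e-07). Fanci stood at 15.1, 16.4, 17.9 and 16.5 CPM and at 1.52, 2.2, 1.53 and 1.55 CPM (edgeR log2 fold change 3.28 ± 0.17 SE, adjusted p = 1.37e-07). Both partners were about 10-fold higher in CD24Mid, and in neither did any library of one group reach the other group.

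The genes that take apart joined chromosomes split in direction. Blm, a helicase that dissolves the junctions, and Eme1, a subunit of the MUS81 nuclease that cuts them, were higher in CD24Mid, with log2 fold changes of 3.29 and 2.63. Blm stood at 13.7, 17.3, 19.8 and 22.3 CPM in CD24Mid and at 0.633, 2.43, 1.16 and 3.31 CPM in CD24Neg (edgeR adjusted p = 1.08e-05). Rmi1, which works with BLM in the dissolvasome, stood at 19.8, 22.5, 25.6 and 24.9 CPM in CD24Mid and at 19.9, 28.6, 31.1 and 27.3 CPM in CD24Neg, and the groups overlapped (edgeR log2 fold change -0.21 ± 0.15 SE, adjusted p = 0.23). Its direction depended on the scaling, at 0.02 with upper-quartile factors and 0.74 on unscaled totals (edgeR adjusted p = 0.9 and 0.0017). An exon of the abundant gene Hnrnpk overlaps Rmi1 on the opposite strand over 330 bases, and the strand setting of the counts is not given, so reads of the pair cannot be told apart there.

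Slx4, the scaffold that gathers the structure-specific nucleases, was the only one of the 42 to pass toward CD24Neg. It stood at 18.6, 20.9, 20.5 and 18.9 CPM in CD24Mid and at 46.4, 47.2, 57.2 and 72 CPM in CD24Neg. The CD24Mid libraries lay close together, and each CD24Neg library was more than 2-fold above them. The difference was 2.83-fold (edgeR log2 fold change -1.50 ± 0.15 SE, adjusted p = 4.95e-06). It kept its sign and its call on scalings that moved the other genes up, at -1.28 with upper-quartile factors and -0.55 on unscaled totals, and ran from -1.54 to -1.31 when any 1 library was left out. Per kilobase of effective length, Slx4 had the highest level of the 42 genes in CD24Neg (28.1 ± 6.02 CPM per kb, SD, n = 4), and it ranked 14 in CD24Mid (9.96 ± 0.569). Trp53 came next in CD24Neg (21.8 ± 2.74), and the ranges of 1 SD of the pair overlapped. These levels rest on the effective length. The effective length the authors' files gave for Slx4 ran from 1655 to 2239 bases over the 8 libraries, whereas its annotated transcripts run from 673 to 5706 bases (GENCODE M21), and a gene-level table does not say which of them gave the reads. No exon of another gene in that annotation overlaps Slx4.

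**Figure D2:**
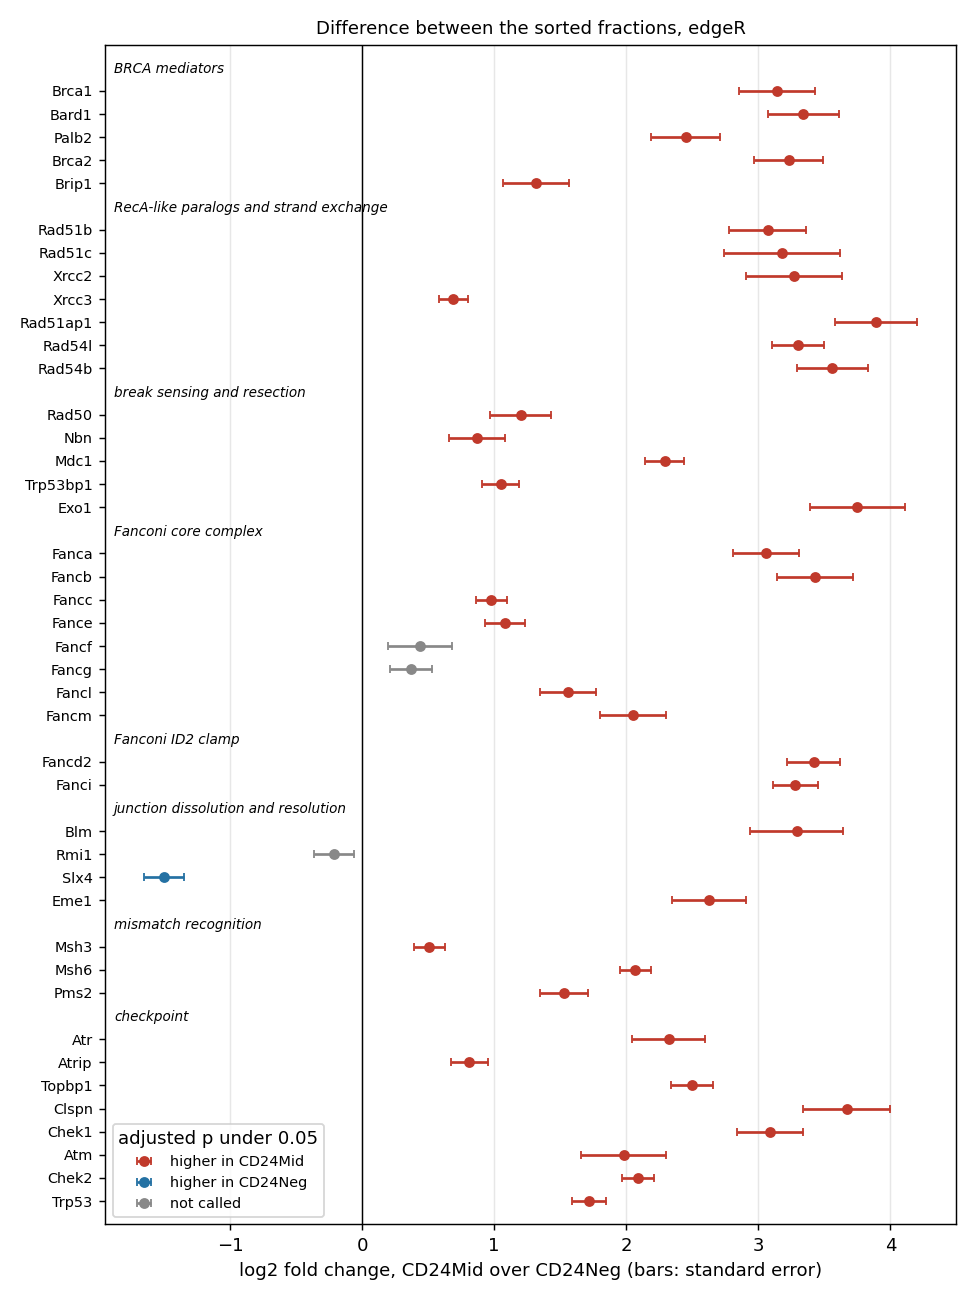
Log2 fold change of each gene, CD24Mid over CD24Neg, from edgeR, by role, with bars for the standard error and colours for the call at an adjusted p under 0.05. The points run from -1.50 (Slx4) to 3.89 (Rad51ap1), and the points in grey are the 3 genes that did not pass (Fancf, Fancg and Rmi1).

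All 3 mismatch repair genes were higher in CD24Mid, to different degrees. Msh6, a subunit that recognises base mismatches, stood at 61.2, 72.5, 74.2 and 66.7 CPM in CD24Mid and at 13.4, 16.3, 17.9 and 17.7 CPM in CD24Neg (edgeR log2 fold change 2.07 ± 0.12 SE, adjusted p = 2.15e-07). Msh3, a subunit that recognises longer loops, stood at 23.5, 29.9, 30.4 and 29.6 CPM and at 18, 20, 20.4 and 21.3 CPM (edgeR log2 fold change 0.51 ± 0.12 SE, adjusted p = 0.0026). CD24Mid replicate 1 came nearest to the CD24Neg libraries, and no library overlapped. The Msh3 call was lost in a limma test of the deposited expression estimates (log2 fold change 0.28, adjusted p = 0.069). The nicking endonuclease subunit Pms2 was 2.88-fold higher (log2 fold change 1.53).

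The 8 checkpoint genes were all higher in CD24Mid, with a median log2 fold change of 2.20. Clspn, the adaptor through which ATR activates CHEK1, led at 12.7-fold, followed by the kinase Chek1 itself (log2 fold change 3.09). Clspn stood at 32.1, 39.9, 38.1 and 42.8 CPM in CD24Mid and at 1.52, 3.47, 1.53 and 5.74 CPM in CD24Neg (edgeR log2 fold change 3.67 ± 0.33 SE, adjusted p = 2.95e-06). The ATR activator Topbp1, with a CD24Mid mean of 116 ± 18 CPM and a CD24Neg mean of 20.6 ± 3.74 CPM (SD over 4 libraries), had a log2 fold change of 2.50. The kinases Atr, Chek2 and Atm followed at 2.32, 2.09 and 1.98, and the transcription factor Trp53 at 1.72. Trp53 stood at 109, 132, 105 and 98.3 CPM in CD24Mid and at 31.7, 38.4, 28.9 and 35.8 CPM in CD24Neg (edgeR adjusted p = 9.32e-07), with a tight group on each side. Atrip, the subunit that brings ATR to single-stranded DNA, had the smallest difference, with 13.9, 16.3, 12.9 and 13.6 CPM in CD24Mid and 9.25, 8.1, 6.75 and 8.5 CPM in CD24Neg (edgeR log2 fold change 0.81 ± 0.14 SE, adjusted p = 4.27e-04). Its exons share 1147 bases on the same strand with Trex1, and estimated counts that include shared reads were 1.2 times the unique reads. Per kilobase of effective length, Trp53 had the highest level of the 42 genes in CD24Mid (71.8 ± 9.6 CPM per kb), ahead of Topbp1 (26.6 ± 4.13), Fance (23.5 ± 3.75) and Msh6 (19.5 ± 1.67). Topbp1 and Fance lay within each other's spread. The ranges of 1 SD of Fance and Msh6 overlapped, though neither mean lay inside the range of the other.

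The spread among the CD24Mid libraries was widest in Atm, Fancm, Atr and Rad50. Atm had a coefficient of variation of 42.9% there, at 23.2, 31.6, 55.9 and 61.2 CPM. Atr stood at 30.5, 34.5, 55.2 and 57.7 CPM (31.3%), and Fancm and Rad50 had coefficients of 31.6% and 26.9%. Atm, Atr and Fancm had effective lengths of 8267, 6792 and 6521 bases, but Rad50 had 3928, and the longest gene, Brca2 (9094 bases), had a coefficient of 21.5%. In Atm, Atr, Fancm and Rad50, CD24Mid replicates 1 and 3 lay below replicates 5 and 7. This order was not particular to them. Brca1, Brca2, Palb2, Brip1, Rad54b, Nbn, Trp53bp1, Fancb, Fanci, Blm, Rmi1, Pms2 and Chek1 had it too. Trp53, Fance, Fancf, Xrcc3, Eme1 and Atrip had the opposite order. Over all well counted genes, chi-square per degree of freedom was 20.9 between replicates 1 and 3 and 11.6 between 5 and 7. It was 32.8 to 39.8 between a library of one of these pairs and a library of the other. Over the 42 genes the coefficient in CD24Mid rose with effective length (Spearman's rho 0.363), against -0.0667 over 11881 tested genes with a CD24Mid mean of at least 1 CPM. These are descriptions across genes that share the same libraries. Despite the spread, all 4 CD24Mid libraries lay above all 4 CD24Neg libraries in these 4 genes.

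Several of the genes share exons with a neighbour, so part of their reads is uncertain. Rad54b shares 35.8% of its exon bases with Fsbp on the same strand. Fsbp had no entry of its own in the deposited counts, so estimated counts cannot show whether its reads went to Rad54b. On the opposite strand, Fanci shares 16% with Polg, Rad54l 15.4% with Lrrc41, Trp53bp1 15% with Tubgcp4, Fancf 15% with Gas2, Fancl 13.7% with Vrk2 and Fanca 10.5% with Zfp276. None of these opposite-strand neighbours had a log2 fold change above 0.76 (Vrk2), and that of Zfp276 was -1.53. Estimated counts that include shared reads gave 38 and 1 calls, the same numbers as unique reads, and were 0.953 (Slx4) to 1.31 (Trp53bp1) times the unique reads.

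Sums over the list show how the genes moved with those of DNA replication. The 42 genes together reached 990, 1190, 1249 and 1262 CPM in CD24Mid replicates 1, 3, 5 and 7 and 307, 373, 367 and 441 CPM in CD24Neg replicates 2, 4, 6 and 8. A list of 30 replication genes summed to 1848 to 2295 CPM in CD24Mid and 283 to 410 CPM in CD24Neg, and all 30 were higher in CD24Mid (median log2 fold change 2.94). For each read of a replication gene there were 0.519 to 0.661 reads of the 42 genes in CD24Mid and 0.959 to 1.29 in CD24Neg, so the gap between the groups was smaller for the 42 than for the replication genes. The 22 mitosis genes were also all higher in CD24Mid, with sums of 2087 to 3055 CPM against 176 to 507 CPM. A lower share of dividing cells in CD24Neg and a lower level per dividing cell cannot be told apart here.

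**Figure D3:**
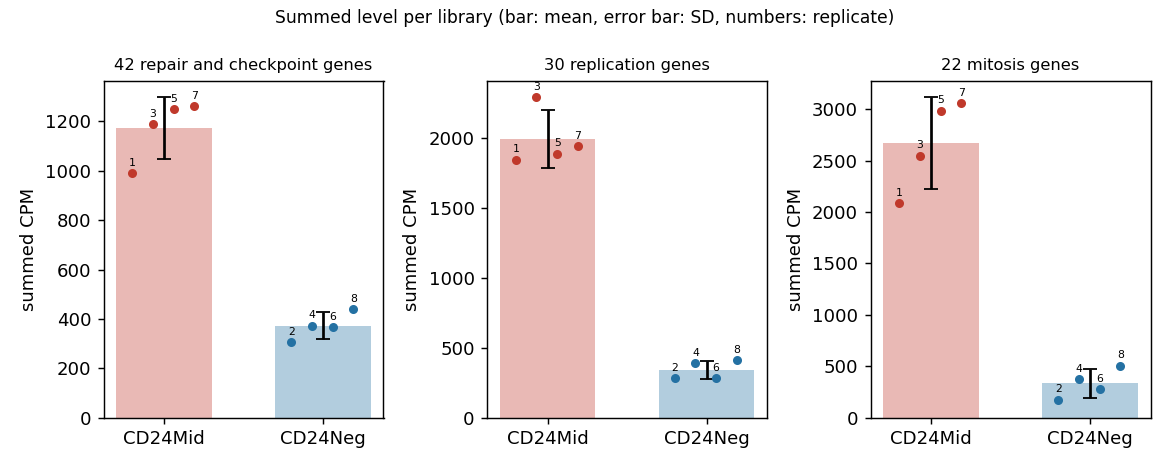
Summed level (CPM) of the 42 repair and checkpoint genes, of 30 replication genes and of 22 mitosis genes, with a point per library marked by its replicate number, bars for the group mean and error bars for the SD (n = 4). The CD24Mid sums of 990 to 1262 CPM for the 42 genes lie above the CD24Neg sums of 307 to 441 CPM, and the replication and mitosis genes show a wider gap.

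The genes were then set against replication, by refitting edgeR with each library's size taken as its summed reads of the 30 replication genes. On that scale 13 of the 42 were higher in CD24Mid and 19 higher in CD24Neg, where 2.12% and 90.3% of all genes tested were. Of the 30 replication genes themselves, 15 passed toward CD24Mid and 6 toward CD24Neg (median relative log2 fold change 0.40). Of the 22 mitosis genes, 12 passed toward CD24Mid and 0 toward CD24Neg (median 0.50). A call toward CD24Mid here is therefore no sign that a gene differed more than most replication genes. The 13 of the 42 toward CD24Mid were Brca1, Bard1, Brca2, Rad51ap1, Rad54l, Rad54b, Exo1, Fanca, Fancb, Fancd2, Fanci, Blm and Clspn. Their relative log2 fold changes ran from 0.53 (Fanca) to 1.37 (Rad51ap1). This side depended on the reference, since edgeR called 3 genes with median-ratio factors over the same replication genes and 0 with the mitosis genes as the reference (0 also at an unadjusted p under 0.05), and 8 without CD24Mid replicate 7. The count of 19 on the other side was 22 and 21 with these references. The 19 held all 3 mismatch repair genes, with Msh6 at -0.50, Pms2 at -1.04 and Msh3 at -2.06, though the Msh6 call was lost when CD24Mid replicate 1, 3 or 7 or CD24Neg replicate 6 was left out (edgeR adjusted p = 0.06 to 0.14). They also held 5 of 8 core Fanconi genes, with Fancg at -2.22 and Fancf at -2.14. The others were Brip1, Xrcc3, Rad50, Nbn, Trp53bp1, Fancc, Fance, Fancl, Rmi1, Slx4, Atrip, Atm, Chek2 and Trp53. Slx4 was the lowest at -4.06 ± 0.25 SE. An error in a size factor is shared by all genes of that library, so p-values on this scale can be too small for 4 libraries a group. Of the 19, 16 passed with any 1 library left out, and besides Msh6 the exceptions were Atm, lost without any 1 of 5 libraries, and Chek2, without any 1 of 6. Of the 13 toward CD24Mid, 7 passed with any 1 library left out, and Fanca was lost without any 1 of 6. Among the 10 genes not called, Topbp1 (-0.05), Palb2 (-0.06) and Eme1 (0.11) lay closest to 0, and the values of Eme1, Palb2 and Topbp1 changed sign under other settings.

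**Figure D4:**
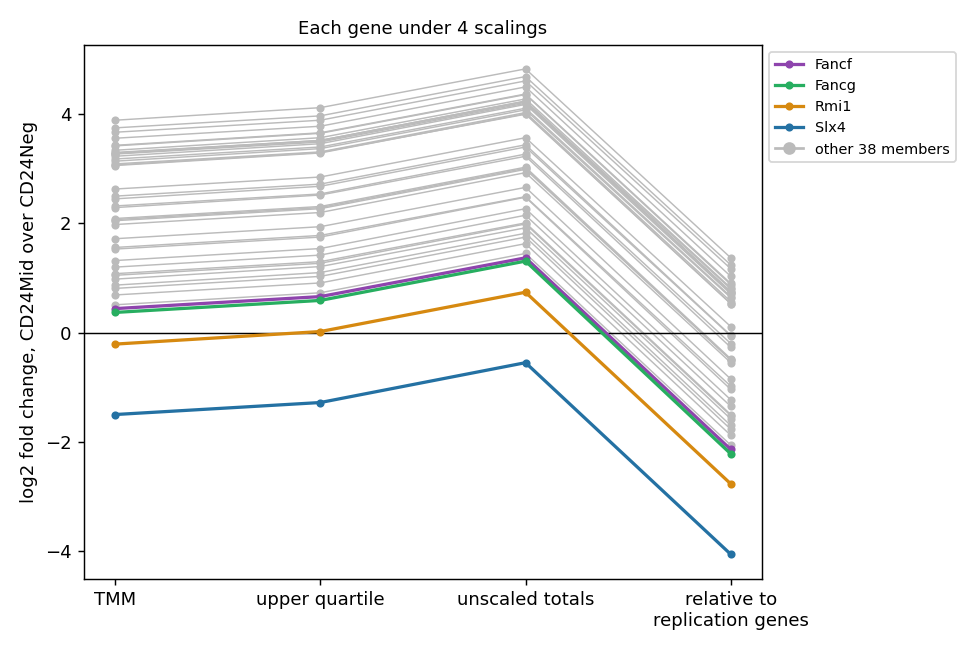
Log2 fold change of each gene, CD24Mid over CD24Neg, under TMM, upper-quartile factors, unscaled totals and relative to the replication genes, with a line per gene. Slx4 stays below 0 in each (-1.50, -1.28, -0.55 and -4.06), and Rmi1 is the only gene to cross 0 among the first 3. All 42 lines drop to the last scaling, where 22 genes that lie above 0 under TMM lie below it.

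Ratios within a library do not depend on the scaling, and 13 pairs of partner, sister or opposing genes were compared in this way after the data had been seen. In 10 of them the groups did not overlap, each with an exact two-sided permutation p = 0.0286 (n = 4 each, the smallest p this design allows, 0.0371 after Benjamini-Hochberg adjustment over the 13). The pairs were chosen with these counts known, and neither p-value corrects for that choice. They describe the separation and give no further support. Ratios are of reads and say nothing of which gene of a pair is more abundant. Eme1 reads per Slx4 read were 0.668, 0.715, 0.585 and 0.605 in CD24Mid and 0.0328, 0.0588, 0.0191 and 0.0414 in CD24Neg, a log2 difference of 4.19. Blm reads per Rmi1 read were 0.692, 0.77, 0.772 and 0.895 against 0.0318, 0.085, 0.0374 and 0.121, a log2 difference of 3.72. Of the pairs compared, these pairs of junction genes were the most shifted. How many other pairs of genes would separate in this way was not tested, and 69.8% of all genes tested passed between the groups.

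Sister genes with related functions also shifted against each other. There were 0.307 to 0.398 reads of Xrcc2 per Xrcc3 read in CD24Mid and 0.0226 to 0.107 in CD24Neg (log2 difference 2.78). Msh6 reads per Msh3 read were 2.6, 2.42, 2.44 and 2.25 in CD24Mid and 0.746 to 0.879 in CD24Neg (log2 difference 1.57). Msh6 gave more reads than Msh3 in every CD24Mid library and fewer in every CD24Neg library. Brca1 and Trp53bp1, whose proteins oppose each other over resection, stood at 0.866 to 1.25 Brca1 reads per Trp53bp1 read in CD24Mid and 0.109 to 0.389 in CD24Neg (log2 difference 2.22). Palb2 fell less than Brca2 toward CD24Neg, with 0.409 to 0.534 reads per Brca2 read in CD24Mid and 0.692 to 0.838 in CD24Neg (log2 difference -0.73).

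Pairs within the checkpoint and the MRE11 complex shifted by 0.31 to 1.52. Chek1 reads per Chek2 read were 0.547 to 0.691 in CD24Mid and 0.2 to 0.446 in CD24Neg (log2 difference 1.06), and Atr reads per Atm read 0.943 to 1.32 and 0.71 to 0.911 (0.41). Atr reads per Atrip read stood at 2.2, 2.12, 4.28 and 4.25 in CD24Mid, in 2 steps that separate replicates 1 and 3 from 5 and 7, and at 0.685 to 1.6 in CD24Neg (1.52). Rad50 and Nbn, of 1 complex, differed by 0.31. When any 1 library was left out, the log2 difference ran from 0.89 to 1.28 for Chek1 to Chek2, 0.31 to 0.47 for Atr to Atm, 1.31 to 1.72 for Atr to Atrip and 0.24 to 0.37 for Rad50 to Nbn. With 3 libraries against 4 there are 35 arrangements, and the exact permutation p moved between 0.029, the smallest possible, and 0.14. It exceeded 0.05 for Chek1 to Chek2 without any 1 CD24Mid library, for Rad50 to Nbn without any 1 CD24Mid library or CD24Neg replicate 6, for Atr to Atm without CD24Mid replicate 1 or CD24Neg replicate 4 or 6, and for Atr to Atrip without CD24Mid replicate 5 or 7. On estimated counts, Chek1 to Chek2 was 0.66 and Rad50 to Nbn 0.25, the latter at an exact permutation p of 0.14. The groups overlapped for Brca1 to Bard1 (log2 difference -0.24, exact permutation p = 0.229), Rad54l to Rad54b (-0.30, p = 0.314) and Fancd2 to Fanci (0.21, p = 0.514).

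**Figure D5:**
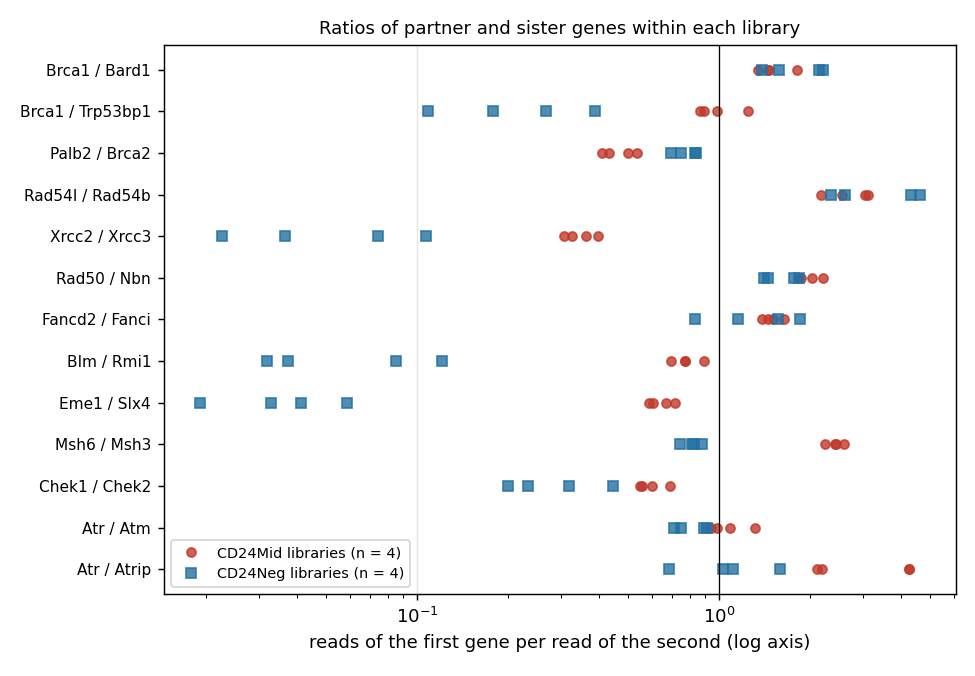
Reads of the first gene per read of the second (log axis) for 13 gene pairs in each library, with circles for the 4 CD24Mid and squares for the 4 CD24Neg libraries. The groups are apart in 10 pairs, most widely for Eme1 to Slx4 and Blm to Rmi1, and they mix for Brca1 to Bard1, Rad54l to Rad54b and Fancd2 to Fanci. All pairs were chosen after the data had been seen.

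Most other genes of the same pathways were also higher in CD24Mid, with medians below the 2.31 of the 42 genes. Both these lists and the 42 genes were chosen with earlier results of these data known. Of 44 further recombination and Fanconi genes, 32 passed toward CD24Mid and 5 toward CD24Neg (median log2 fold change 0.66). Under upper-quartile scaling these became 35 and 3, and without scaling 41 and 0. The 5 toward CD24Neg were also 3 with no filter, with TMM set without mitochondrially encoded genes, on estimated counts, or without CD24Mid replicate 5 or CD24Neg replicate 2, 4 or 8. The AAA ATPase Fignl1 (log2 fold change 3.35) and the end-joining polymerase Polq (3.21) led toward CD24Mid. The helicase Recql5 (-0.96, a call lost on unscaled totals) and Zswim7, a recombination factor (-0.85, turning to 0.09 on unscaled totals), led toward CD24Neg. Of 8 further mismatch repair and linked polymerase genes, 6 passed toward CD24Mid and 1 toward CD24Neg. Their median log2 fold change was 1.57, close to the 1.53 of the 3 mismatch repair genes among the 42. Toward CD24Mid the polymerase subunit Pold1 led with a log2 fold change of 2.77, followed by the MutL homolog Mlh3 (2.11), while the small subunit Pold4 was 2.52-fold higher in CD24Neg (-1.33).

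Of 18 further checkpoint genes, 13 passed toward CD24Mid and 2 toward CD24Neg (median log2 fold change 1.41), which became 17 and 0 without scaling. The fork protection pair Timeless and Tipin was 15.6-fold and 8.31-fold higher in CD24Mid. The p53 ligase Mdm2 was 2.08-fold higher in CD24Neg (log2 fold change -1.06, a call lost on unscaled totals), and the phosphatase Cdc25a differed by -0.29 (0.65 on unscaled totals). The Cdc25a call was also lost with upper-quartile scaling (-0.07), with no filter (-0.19) and without CD24Mid replicate 3 or 7 or CD24Neg replicate 2 or 6 (edgeR adjusted p = 0.051 to 0.096), which left 1 gene toward CD24Neg. Target genes of p53 were split in direction, and the split depended on the scaling. Of 24 tested, 6 passed toward CD24Mid and 11 toward CD24Neg (median log2 fold change -0.31). Upper-quartile factors gave 9 and 9, unscaled totals 13 and 5, and limma on the deposited estimates 3 and 10. The cell cycle inhibitor Cdkn1a averaged 184 ± 12.4 CPM in the CD24Neg libraries against 39.2 ± 6.43 CPM, and the death receptor Fas 41.1 ± 3.26 against 3.21 ± 1.09 CPM (SD over 4 libraries, edgeR adjusted p = 2.27e-07 for each). The exonuclease Aen (log2 fold change 2.26) and the stress gene Ddit4 (1.40) were higher in CD24Mid. Fas is also expressed by lymphocytes, whose markers were higher in CD24Neg, and their part in its level was not tested.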

How the data were processed

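RNA was sequenced from 8 sorted populations of mouse small intestinal epithelium, with total RNA from a column kit and TruSeq libraries per the labels' protocols. The submitters' processing notes name the aligner Bowtie 0.12.8 and the mouse build NCBIM37. The file and column names are those of MMSEQ, a program that shares out reads among transcripts. For its version, the annotation release and the strand setting the sources used here give nothing. The deposited tables give, per gene, a whole-number count of reads unique to that gene, which is the measurement used here. The authors also deposited an expression estimate that includes shared reads, read here as a natural log because that reading gives back the unique counts (median ratio 1.003 to 1.004), and an effective length in bases (a quantity, per the file headers, of each gene and library). The files gave 12401668 to 20445879 mapped fragments per library, of which 89.1 to 92.6% were unique to 1 gene.

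The groups came from the cell type label. The test was that of edgeR 4.0.16, run in R 4.3.3 (filterByExpr, TMM, robust quasi-likelihood F test on the group alone, Benjamini-Hochberg over 12840 genes, threshold 0.05), after the scripts had been tested on simulated data. There the test called 32% of 50 genes set 1.5-fold apart, 68% at 2-fold and 92% at 4-fold. Relative to the replication genes it called 22%, 66% and 92%. Differences as small as those of Fancf, Fancg and Rmi1 can therefore be missed. The standard error is the log2 fold change divided by the root of F. TMM factors were 1.34 to 1.42 for CD24Mid and 0.697 to 0.757 for CD24Neg libraries. Alternatives were upper-quartile factors, unscaled totals, TMM without mitochondrially encoded genes, no filter, estimated counts, DESeq2 1.42.0, limma 3.58.1 on the deposited estimates and leaving out each library. The fit relative to replication takes its size factors as known. An error in them is shared by all genes of a library, so the p-values of that fit can be too small. Ratios used exact permutation tests, and intervals SciPy 1.17.1. No library was a repeat of another, since the smallest chi-square between libraries of the same group was 11.6 per degree of freedom. Intervals and limits cover counting error only, since reads are not independent molecules.

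All 42 genes are named. Values in every library are given for the genes with the largest and the smallest absolute difference of each role, for genes higher in CD24Neg and for those not called, and further values were chosen after they were seen. Of further lists, up to 2 genes a direction are named where the mean log2 CPM reached 2, and marker lists are given by their sum. The 42 genes, the lists and the pairs were chosen with earlier results of these data known. Some genes of the further lists are not reported here and are in none of the counts of those lists. Gene names and overlapping exons came from GENCODE M21 and promoters from RefSeq, both of build GRCm38, and no coordinates of the older build are given.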

Additional observations from a re-analysis of the deposited data

Results flagged for a closer look

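In 6 of 84 groups of 4 libraries (42 genes in 2 groups), 1 library stood far from the other 3, with a gap to its nearest neighbour, as a part of the whole range, above Dixon's 95% critical value. Chance gives this in about 1 of 20 groups, so a number of this size is near what chance gives. Mdc1 was lowest in CD24Neg replicate 2, at 12.8 CPM against 18.2 to 18.6 CPM. Fanca was highest in CD24Neg replicate 8, at 6.73 CPM against 2.66 to 3.17 CPM. CD24Neg replicate 4 was the highest of its group for Fancb, at 1.04 CPM against 0.507 to 0.552 CPM, on 9 reads, and for Fanci, at 2.2 CPM against 1.52 to 1.55 CPM. In CD24Mid, Fancg was highest in replicate 3, at 12.1 CPM against 10.5 to 10.7 CPM, and Msh3 lowest in replicate 1, at 23.5 CPM against 29.6 to 30.4 CPM. None of these libraries crossed into the range of the other group.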

How the results depend on the processing

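Of the 42 genes, 37 to 41 were higher in CD24Mid and 1 in CD24Neg under every alternative of scaling, filter, test or count, and 38 to 39 and 1 when any library was left out. Rmi1 turned from -0.21 to 0.02 with upper-quartile factors and 0.74 on unscaled totals. These scalings moved the median over all genes from 0.02 to 0.24 and 0.96, and the share of calls higher in CD24Mid from 50.8% to 61.4% and 84.4%. On unscaled totals Zswim7 turned to 0.09, Cdc25a to 0.65, Polm to 0.49, Xpa to 0.27, Ercc5 to 0.44 and Primpol to 0.61.

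Relative to the replication genes, the 13 genes higher in CD24Mid became 3 with median-ratio factors and 0 with the mitosis genes, and 8 to 13 with a library left out (8 without CD24Mid replicate 7). The 19 higher in CD24Neg became 22, 21 and 16 to 19. Eme1 turned from 0.11 to -0.27 with median-ratio factors, -0.37 with the mitosis genes and -0.07 without CD24Neg replicate 6 (range -0.07 to 0.23 over libraries left out). Palb2 turned from -0.06 to 0.01 without CD24Mid replicate 3 and 0.13 without CD24Neg replicate 8 (range -0.19 to 0.13), and Topbp1 from -0.05 to 0.02 without CD24Mid replicate 1 (range -0.14 to 0.02). The log2 ratio of Fancd2 to Fanci turned from 0.21 to -0.10 on estimated counts and -0.01 without CD24Neg replicate 2 (range -0.01 to 0.38). These ratio alternatives were chosen after seeing the data. The share of promoters with E2F letters fell from 30.6% to 13.9% with TTTCGCGC or TTTGGCGC alone, which admits fewer letters. For the other values the cause was not tested.

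No paired analysis was run, because the labels tie no library of one group to one of the other. The sample numbers are odd in CD24Mid and even in CD24Neg, and no number is shared. Whether libraries with neighbouring numbers came from the same animals or sort is not stated, so a pairing can be neither used nor excluded. Depth limits Rad51b, Rad51c, Xrcc2 and Fancb most, with 13 to 25 reads each over the CD24Neg libraries.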

Other observations

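Repair pathways outside the 42 genes were more mixed. Of 10 genes of non-homologous end joining, 3 passed toward CD24Mid and 2 toward CD24Neg (8 and 1 on unscaled totals, 3 and 1 with upper-quartile factors), with the Ku subunits Xrcc5 (log2 fold change 1.60) and Xrcc6 (1.14) on one side and Paxx (-1.88) and the polymerase Polm (-0.45, but 0.49 on unscaled totals) on the other. Of 16 base excision genes, 12 passed toward CD24Mid (15 on unscaled totals) and 1 toward CD24Neg. The glycosylases Neil3 and Ung were 13.6-fold and 12.7-fold higher in CD24Mid, and the end-processing enzyme Aptx (-0.98, a call lost on unscaled totals) was higher in CD24Neg.

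Of 21 nucleotide excision genes, 10 passed toward CD24Mid and 5 toward CD24Neg (20 and 0 on unscaled totals, 12 and 1 with upper-quartile factors), and none lay beyond a log2 fold change of 1.15 (Gtf2h3, a TFIIH subunit) in either direction. Cetn2 was next toward CD24Mid (0.95), and Xpa (-0.67) and Ercc5 (-0.51) led toward CD24Neg, turning to 0.27 and 0.44 on unscaled totals. The 5 became 3 with no filter, by limma and without CD24Neg replicate 6 or 8, and the Ercc5 call was among those lost each time. Of 10 translesion genes, 6 passed toward CD24Mid (10 on unscaled totals, 3 by limma) and 1 toward CD24Neg. The ubiquitin ligase Rad18 and the polymerase Poli were 7.82-fold and 5.47-fold higher in CD24Mid, and Primpol differed by -0.33 (0.61 on unscaled totals). The call toward CD24Neg was also lost with upper-quartile factors, with TMM set without mitochondrially encoded genes, with no filter, and without CD24Mid replicate 1, 3 or 7 or CD24Neg replicate 4, 6 or 8 (log2 fold change -0.34 to -0.21 without 1 of these libraries). Calls are from edgeR at an adjusted p under 0.05, which 35.5% of all genes tested reached toward CD24Mid and 34.3% toward CD24Neg.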
